A study of Homo sapiens with 9 samples.

Results

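HSC-3 is a human oral squamous carcinoma cell line, and apatinib is an oral drug that blocks the kinase of KDR, the main receptor of vascular endothelial growth factor (VEGF). The data described here are the response of this line to 24 h of the drug, read as messenger RNA in 3 libraries named MPTN24 and compared with 3 libraries of the parental line, named WT. MPTN24 is not spelled out in the labels, so it was taken as the 24 h exposure from its number. Another group of 3 libraries, MPTN, taken as the line grown to resistance, entered the model for its estimate of the spread and is given as levels beside some results. All groups are the same line with no genetic change stated, and a dose, a vehicle and the origin of the replicates are not given in the sources used here. The p-values therefore measure the spread between these samples, which may be technical. Every annotated gene was considered, 60612 in all, and the 16990 with enough counts were tested.

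Receptor kinases of the VEGF family sit mostly on endothelial cells, where they pass growth and survival signals to the ERK and AKT kinases. In carcinoma cells the same 2 pathways, reached from other receptors, raise MYC, the making of ribosomes and entry into the cell cycle, and they act on lipid synthesis through the SREBP transcription factors. Cholesterol derivatives activate the liver X receptors, which switch on exporters of cholesterol, and shortage of amino acids or other stresses activates ATF4.

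Of the kinases in the list of apatinib targets, the VEGF receptors were at or near 0 and SRC was well expressed. KDR was listed at 0 counts in all 9 libraries. A limit of 3 counts for a count of 0 is 0.0518 CPM in MPTN24 1, the highest limit of the 6 libraries compared. In these data a read pair often appears as 4 counts, so a limit set in read pairs is higher and was not computed. FLT4, the receptor of VEGFC, was at 0 in the same 6 libraries and FLT1, another VEGF receptor, was at 0.0577 CPM in WT 2 and at 0 in the other 5. CPM are counts scaled to 1e6 counts, on TMM-scaled library sizes, and such limits cover counting error only. KIT, the receptor of stem cell factor, was at 0.365, 0.534 and 0.227 CPM in WT and at 0, 0.35 and 0.14 CPM in MPTN24. RET was at 3.71, 3.25 and 4.01 CPM in WT and at 5.49, 4.27 and 4.62 CPM in the treated cells. SRC, a kinase of the membrane, was at 135, 113 and 114 CPM in WT and at 153, 130 and 144 CPM in MPTN24 (edgeR adjusted p = 0.11), with overlapping groups. PDGFRA and PDGFRB were below 1 CPM and CSF1R was at 3.93 to 5.89 CPM over the 6 libraries, and the test passed for none of these 3. The MPTN24 libraries lay above WT for RET, but the difference did not pass the test (log2 change 0.39 ± 0.19, edgeR adjusted p = 0.16), and that of KIT did not either (edgeR adjusted p = 0.42).

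The libraries held 60383313 to 88923424 counts, with 19947 to 21126 genes detected in each. In a principal component analysis of the 6 libraries the first component, with 33.1% of the variance, set WT (-48.7 to -34.1) against MPTN24 (32.5 to 51.7). The second, with 21.9%, set WT 1 (69) against WT 2 (-35.4) and WT 3 (-33.1), and the third, with 16.9%, set MPTN24 1 (56.3) against MPTN24 2 and 3 (-32.8 and -34.6). The common coefficient of variation between replicates was 24.9% in WT, 17.8% in WT 2 and WT 3 alone, and 16.7% in MPTN24. Squamous epithelial markers fitted the labelled cell type, with KRT5 at 5218 to 7616 CPM, KRT14 at 2843 to 5382 CPM and TP63 at 186 to 359 CPM over the 6 libraries. Endothelial markers summed to 5.25 to 6.26 CPM and fibroblast markers to 25.8 to 34.7 CPM over the 6 libraries, and 0 of the 13 tested genes of these lists passed the test. Of 16 leukocyte markers, the defining genes PTPRC, CD3E, MS4A1, TYROBP and NKG7 were at 0 in all 6 libraries.

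After 24 h with the drug, genes that rose included FASN of fatty acid synthesis, the cholesterol exporters ABCG1 and ABCA1, the stress gene CHAC1, the laminin LAMB2 and the collagen COL6A1. In lists of ribosome assembly, splicing, DNA replication, mitosis and heat shock proteins, 0 genes rose and between 20 and 42 fell. In the quasi-likelihood test of edgeR, 3936 of 16990 genes (23.2%) passed a Benjamini-Hochberg adjusted p of 0.05. Of these 1884 rose (11.1% of those tested) and 2052 fell (12.1%). Because the count depended on the library set, a gene is called firm here when it passed with all libraries and, in the same direction, in each of 6 fits that left out 1 WT or MPTN24 library. Firm calls numbered 1642 (9.66% of those tested), of which 860 rose (5.06%) and 782 fell (4.6%). The CPM ranges of WT and MPTN24 did not overlap in 100% of the firm calls, against 38% of all tested genes. The firm rises were 1.69-fold at the median and 233 reached 2-fold, while the firm falls were 1.55-fold at the median and 61 reached 2-fold. The median log2 change of all tested genes was 0.00. With upper-quartile scaling the genes that rose numbered 2282 and the genes that fell 1569. Leaving out MPTN24 1 left 1022 rises and 935 falls, leaving out MPTN24 3 left 1090 and 1097, and leaving out WT 2 left 1258 and 1172.

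Leaving out WT 1 had the opposite effect on the count. Without it 4821 of 17653 tested genes (27.3%) passed, 2286 upward (12.9%) and 2535 downward (14.4%). Of the 3936 genes called with all libraries, 3548 were called again in the same direction, 0 in the opposite direction, and 388 were not called. Another 1273 genes were called without WT 1 alone, and in 1114 of the 1259 that were tested both times WT 1 lay nearer to the mean of MPTN24 than to that of WT 2 and WT 3. A gene that passes only without WT 1 is likely to have WT 1 there, so this count is shaped by the choice of genes. All firm calls held without WT 1 by their definition. WT 1 lay nearer to MPTN24 in 136 of the 1642 firm calls and in 701 (17.8%) of the 3936 called genes. Those genes passed with WT 1 in the fit, so their counts are shaped by the choice as well. None of these counts measures how near WT 1 lay to MPTN24 over all tested genes.

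Over all tested genes the direction of change went with base composition, and the source of this trend was not tested. Over 16809 tested genes with a GENCODE transcript, the median log2 change was -0.25 in the 3362 genes with the lowest GC content (23.1% to 41.4%), 0.00 in those from 46.2% to 51.9% and 0.27 in the 3362 with the highest (58.2% to 75.7%). Firm falls had a median GC content of 41.6% and firm rises of 57.3%, against 48.9% in all tested genes. WT 1 differed from the mean of WT 2 and WT 3 along the same axis, by -0.18 in the lowest and 0.06 in the highest of these classes. With offsets for GC content and length in the model, the genes that rose numbered 1335 and the genes that fell 2338, and 1474 of the 1642 firm calls (89.8%) were called again in the same direction. Some lists followed this order, such as splicing factors at a median GC content of 40.7% (median log2 change -0.37) and collagen chains at 61.2% (0.36). Others did not: the nucleolar list, at 48.4%, had a median log2 change of -0.46, and -0.56 with the offsets, and immediate early genes, at 56.7%, had -0.39. For list counts of 5 or more, the count with these offsets is given below where it differs from the main count by more than 1.5 times. All list counts are to be set beside the shares of all tested genes, of which 11.1% rose and 12.1% fell. The firm shares were 5.06% and 4.6%.

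**Figure D1:**
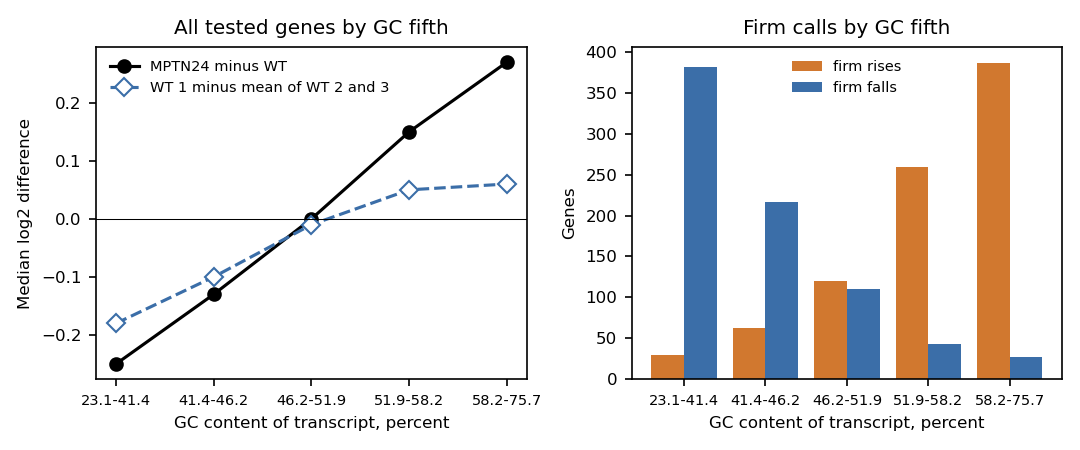
Left, median log2 difference of tested genes in 5 equal classes of transcript GC content (percent), for MPTN24 minus WT (circles) and for WT 1 minus the mean of WT 2 and WT 3 (diamonds). Right, number of firm rises and firm falls in each class. The median for MPTN24 minus WT runs from -0.25 to 0.27, and firm falls go from 382 to 27 while firm rises go from 29 to 387.

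The largest firm rises among genes at 10 CPM or more were led by ABCG1, an exporter of cholesterol (ENSG00000160179, GRCh38 chromosome 21, 42199689 to 42297244). Its level was 1.41, 6.96 and 5.11 CPM in WT and 35.4, 32.3 and 34.3 CPM in the treated libraries (7.52-fold, log2 change 2.91 ± 0.48, edgeR adjusted p = 0.0067; 5.65-fold without WT 1). WT 1 was the lowest library. Every MPTN24 library stood above every WT library, which the choice of these 10 genes required. ANPEP, a membrane aminopeptidase, went from 2.6, 3.61 and 3.16 CPM to 13.8, 12.2 and 12 CPM (4.06-fold). ADAM19, a membrane metalloprotease, went from 5.22, 3.62 and 3.55 CPM to 13.5, 11.5 and 17.4 CPM (3.43-fold). The T cell adaptor SH2D2A, the transcription factor gene TOX2, the channel-like gene TMC4, FASN, the lysosomal membrane gene LAPTM5, the actin-bundling gene LCP1 and the oxoprolinase gene OPLAH completed the 10, with changes from 2.78-fold to 3.37-fold. LCP1, LAPTM5 and SH2D2A are best known from blood cells. LCP1 stood at 19.1, 16.9 and 14 CPM in WT and at 48.3, 44.8 and 47.1 CPM after treatment (log2 change 1.49 ± 0.12, edgeR adjusted p = 8.8e-06).

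Of 16 leukocyte markers 5 were tested, and 4 of these rose and 0 fell (11.1% of all tested genes rose), LAPTM5 and CD68 firmly and CD14 and ITGAM not firmly. Without MPTN24 1 or MPTN24 3 the count was 2. The 16 markers together summed to 94.2, 82.9 and 76.2 CPM in WT and to 147, 126 and 137 CPM in MPTN24. Most of that sum was CD68, a lysosomal glycoprotein that carcinoma cells also express, at 82.1, 68.5 and 61.4 CPM in WT and 118, 102 and 111 CPM in MPTN24, while the markers that define T cells, B cells and natural killer cells were at 0.

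Secreted and signalling proteins made up most of the largest firm falls. ADAMTS1, a secreted protease of the matrix (ENSG00000154734, chromosome 21, 26835755 to 26845409), fell from 124, 171 and 148 CPM to 33, 34 and 35.1 CPM (4.34-fold lower, log2 change -2.12 ± 0.13, edgeR adjusted p = 2.5e-06). EDN1, the peptide endothelin (chromosome 6, 12290361 to 12297194), fell from 40.2, 35.6 and 44.9 CPM to 9.7, 11 and 10.2 CPM (3.9-fold lower). In both genes the 3 MPTN24 libraries were within a narrow band far below all WT libraries. SGK1, a kinase of the AKT family, fell from 66.6, 194 and 189 CPM to 38.8, 39.1 and 37.1 CPM, with WT 1 nearest to MPTN24 (3.91-fold lower, edgeR adjusted p = 0.011). OLR1, a receptor for oxidized lipoprotein, PTGS2, the inducible cyclooxygenase, the zinc finger gene OSR2, the EGFR-family ligand NRG1 and the peptide hormone ADM fell 2.49-fold to 3.55-fold. THBS1, the matrix protein thrombospondin 1 (chromosome 15, 39581079 to 39599466), fell from 1443, 1863 and 1448 CPM to 467, 589 and 554 CPM (2.95-fold lower). FST, the secreted activin antagonist follistatin, fell from 811, 663 and 747 CPM to 279, 331 and 277 CPM (2.5-fold lower, edgeR adjusted p = 2.1e-05).

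**Figure D2:**
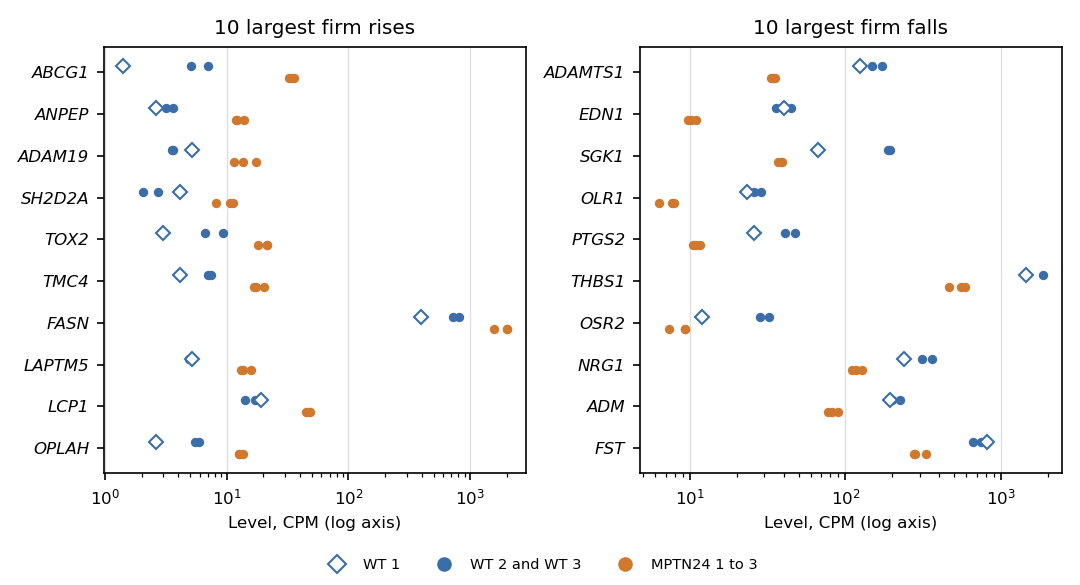
Levels (CPM, log axis) of the 10 largest firm rises (left) and 10 largest firm falls (right) in each library, with WT 1 as open diamonds, WT 2 and WT 3 as blue circles and MPTN24 as orange circles. The orange points lie to one side of all blue points in every gene, which the choice of genes required. WT 1 lies between MPTN24 and the other WT libraries in several genes, SGK1, PTGS2 and OSR2 among them.

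By difference in level, the largest firm rises were, in order, the mitochondrial transcript MT-CO2, the integrin gene ITGA3, FASN, the urokinase gene PLAU, the chromatin gene HMGA1 and the basement membrane gene AGRN. With the GC offsets, HMGA1 (log2 change 0.35, edgeR adjusted p = 0.05) and AGRN (0.27, edgeR adjusted p = 0.2) no longer passed the test. PLAU was at 1846, 1149 and 1213 CPM in WT and at 2500, 2472 and 2418 CPM in MPTN24. The largest falls were THBS1, CAV1, which coats caveolae, HSP90AA1, the coagulation initiator F3, NPM1 and the translation factor gene EIF4G2. CAV1 fell from 1655, 2004 and 1798 CPM to 793, 953 and 861 CPM (2.09-fold lower, edgeR adjusted p = 9e-05), with no overlap between the groups, as in all firm calls.

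Many genes of lipid supply rose. Of 26 tested genes of fatty acid synthesis, 10 rose and 0 fell, and 7 rose firmly. Their median log2 change was 0.37 against 0.00 over all tested genes. FASN, the fatty acid synthase (ENSG00000169710, chromosome 17, 82078338 to 82098294), went from 393, 809 and 718 CPM to 1996, 1580 and 2000 CPM (2.9-fold, log2 change 1.54 ± 0.22, edgeR adjusted p = 0.0011; 2.43-fold without WT 1). ACSS2, which makes acetyl-CoA from acetate, went from 22.8, 41.4 and 43.6 CPM to 106, 92.3 and 97.6 CPM. SREBF1, the transcription factor that drives these genes, went from 95.2, 220 and 232 CPM to 516, 467 and 531 CPM (2.77-fold, edgeR adjusted p = 0.0091). In each of these genes WT 1 was the lowest library and the MPTN24 libraries were the highest. SCD, the desaturase, was at 229, 1655 and 1434 CPM in WT and at 3236, 3161 and 3157 CPM in MPTN24. The MPTN24 libraries were all above WT for SCD, but the spread of WT kept it from passing the test (edgeR adjusted p = 0.15), which it did pass without WT 1 (2.06-fold, edgeR adjusted p = 3.6e-05).

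Of 17 tested targets and members of the liver X receptor pathway, 8 rose and 0 fell, 6 of them firmly, with a median log2 change of 0.55, or 0.35 with the GC offsets. Without WT 1 the count was 10. Beside ABCG1 and SREBF1 the firm rises were ABCA1, another cholesterol exporter, LPCAT3, which remodels membrane phospholipids, PLTP, a phospholipid transfer protein, and TTC39B. ABCA1 went from 13.2, 29.3 and 22.8 CPM to 53.5, 62.4 and 64.6 CPM (2.76-fold, log2 change 1.47 ± 0.25, edgeR adjusted p = 0.0032). MYLIP, a ubiquitin ligase, and NR1H3, one of the 2 liver X receptors, rose in the test but not firmly. APOE, another known target, had a log2 change of 0.24 that did not pass.

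Genes of cholesterol synthesis rose in part. Of 29 tested genes, 8 rose and 1 fell, 6 rose firmly and 1 fell firmly; with the GC offsets 5 rose and 1 fell. The firm rises included the mevalonate and sterol enzymes MVD, FDPS, LSS and TM7SF2 and the regulator SREBF2, and the firm fall was TMEM97, a sterol-binding membrane protein. LSS, which closes the sterol ring, went from 58.9, 101 and 101 CPM to 186, 177 and 192 CPM (2.13-fold, edgeR adjusted p = 0.00061). MVD went from 27, 40.9 and 45.4 CPM to 72.8, 68.3 and 73.4 CPM. Without WT 1 6 genes of the list fell and 10 rose. The falls then included TMEM97 and the enzymes HMGCS1 (log2 change -0.64), IDI1 (-0.51), CYP51A1 (-0.40) and SQLE (-0.35), named after their values were seen.

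Promoters of 2 sterol genes that rose, picked after their values were seen, are shown here beside 2 mitotic genes that fell, because both lists held the same short sequence often. The sequences are the 250 bases before the RefSeq start on GRCh38.p14, read toward the gene, with each CCAAT on either strand (CCAAT or ATTGG) in capitals.
MVD (chr16:88663092-88663341, minus strand): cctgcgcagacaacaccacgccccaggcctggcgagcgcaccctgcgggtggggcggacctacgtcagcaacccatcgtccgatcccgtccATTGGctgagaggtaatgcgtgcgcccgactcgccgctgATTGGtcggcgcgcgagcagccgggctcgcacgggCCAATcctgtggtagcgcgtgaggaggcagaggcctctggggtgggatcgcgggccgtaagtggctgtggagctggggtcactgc
FDPS (chr1:155308616-155308865, plus strand): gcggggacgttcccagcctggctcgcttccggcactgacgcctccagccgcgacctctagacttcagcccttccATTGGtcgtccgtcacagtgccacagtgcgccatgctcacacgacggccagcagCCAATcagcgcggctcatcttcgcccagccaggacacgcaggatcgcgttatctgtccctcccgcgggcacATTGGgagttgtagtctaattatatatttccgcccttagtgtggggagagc
KIF23 (chr15:69414099-69414348, plus strand): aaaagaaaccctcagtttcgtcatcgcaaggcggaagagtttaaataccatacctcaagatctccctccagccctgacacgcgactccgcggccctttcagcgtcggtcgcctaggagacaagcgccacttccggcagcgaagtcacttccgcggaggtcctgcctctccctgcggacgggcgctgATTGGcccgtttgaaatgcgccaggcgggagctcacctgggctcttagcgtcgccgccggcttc
NUSAP1 (chr15:41332631-41332880, plus strand): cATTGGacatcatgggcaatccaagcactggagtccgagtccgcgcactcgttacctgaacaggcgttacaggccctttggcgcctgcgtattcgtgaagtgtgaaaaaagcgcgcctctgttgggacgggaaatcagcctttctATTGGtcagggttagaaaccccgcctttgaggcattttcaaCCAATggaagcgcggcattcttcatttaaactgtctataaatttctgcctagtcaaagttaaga
The letters CCAAT were present in 16 of 22 cholesterol promoters found in the RefSeq table (72.7%), in 27 of 36 mitosis promoters (75%), in 34.9% of 11392 promoters of tested genes and in 33% of all 27305 promoters. The same letters thus stood before genes of a list with rises and a list with falls. The SREBP element TCACNCCAC, searched on both strands, was present in 1 of the 22 cholesterol promoters, that of SREBF2, and in 0.895% of the promoters of tested genes. A match is a description of the letters and not a binding site.

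Genes of ribosome assembly in the nucleolus had the most uniform fall. Of 53 tested, 42 fell and 0 rose, 27 fell firmly, and the median log2 change was -0.46. Without WT 1 40 fell. WDR43, a factor of the small subunit processome (ENSG00000163811, chromosome 2, 28894667 to 28948219), fell from 99.7, 159 and 137 CPM to 58, 66.1 and 63.3 CPM (2.11-fold lower, log2 change -1.08 ± 0.14, edgeR adjusted p = 0.00029). NOP58, a core protein of the particles that methylate ribosomal RNA, fell from 54.5, 72.6 and 65 CPM to 27.1, 32.4 and 32.3 CPM. DDX21, an RNA helicase of the nucleolus, fell from 386, 547 and 467 CPM to 214, 235 and 232 CPM. LYAR, a nucleolar growth factor, fell by 0.99 on the log2 scale, and NPM1, the abundant nucleolar chaperone, fell from 1404, 1411 and 1434 CPM to 879, 983 and 878 CPM. In each of these genes the groups did not overlap, as in 45 of the 53, all of them lower. Over all tested genes the groups did not overlap in 38%, and in 19.2% with MPTN24 lower. The summed level of the list was 8437 to 8527 CPM in WT and 5641 to 5870 CPM in MPTN24.

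The ribosomal proteins themselves did not follow. Of 34 tested, 3 fell and 0 rose, with a median log2 change of 0.02, and the firm fall was RPL22L1, a variant of a large subunit protein. MYC, the transcription factor that drives nucleolar genes (chromosome 8, 127735434 to 127742951), fell from 290, 356 and 356 CPM to 191, 218 and 206 CPM (1.63-fold lower, log2 change -0.70 ± 0.11, edgeR adjusted p = 0.00089). The E-box CACGTG, the letters MYC is known to bind, was present in 6 of 45 nucleolar promoters (13.3%) and in 8.63% of those of tested genes. The share was 12.9% to 16.7% in the heat shock, cholesterol, mitosis, immediate early and splicing lists. It was 4.55% in the fatty acid synthesis list and 7.14% in the liver X receptor list. A part of MYC in the nucleolar falls was not tested. Of 20 enzymes of purine and pyrimidine synthesis 9 fell and 0 rose, 5 of them firmly, among them PPAT and PAICS of the purine chain and UMPS of the pyrimidine chain. On the deposited FPKM with limma, 5 or 4 of the 20 fell.

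Splicing factors were lower as well. Of 29 tested, 20 fell and 0 rose, 12 fell firmly, and the median log2 change was -0.37; the median GC content of the list was 40.7%. SRSF1, a general activator of splicing, fell from 347, 305 and 281 CPM to 176, 221 and 175 CPM (edgeR adjusted p = 0.0012). HNRNPU, an abundant RNA-binding protein of the nuclear scaffold, fell from 679, 741 and 719 CPM to 400, 517 and 458 CPM, PRPF4B, a kinase of the spliceosome, by 0.68 and SRSF6 by 0.63 on the log2 scale. Leaving out MPTN24 1 left 12 falls, leaving out MPTN24 3 left 13, and limma on FPKM gave 11.

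**Figure D3:**
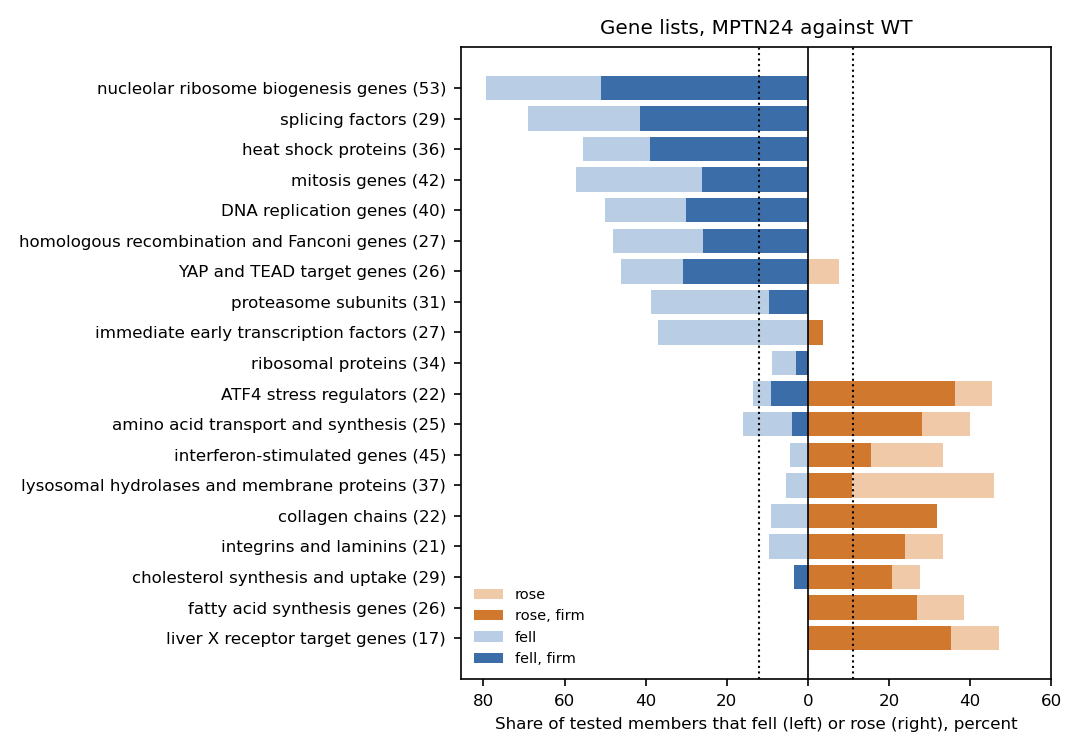
Share of tested members of each list that rose (right, orange) or fell (left, blue), with the firm calls in the darker colour and the number tested in brackets. Dotted lines mark the share of all tested genes that rose (11.1%) and fell (12.1%). The nucleolar, splicing and chaperone lists have no bar to the right, and the lipid lists hold 1 fall between them.

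Genes of the cell cycle fell in part. Of 40 genes of DNA replication 20 fell and 0 rose, 12 of them firmly, and of 42 genes of mitosis 24 fell and 0 rose, 11 of them firmly. MCM10, which acts in activating the replicative helicase, fell from 50.7, 46.9 and 47.1 CPM to 24.4, 29.7 and 27.2 CPM (1.78-fold lower, edgeR adjusted p = 0.00056). CLSPN, RFC3 and ORC6, of the replication checkpoint, the clamp loader and the origin complex, fell by 0.71, 0.71 and 0.67 on the log2 scale. KIF11, the motor that separates spindle poles, fell from 107, 134 and 116 CPM to 64.3, 86.5 and 80 CPM, and ANLN, a scaffold of the cleavage furrow, from 253, 268 and 218 CPM to 139, 145 and 156 CPM. Other genes of mitosis moved little: PLK1 had a log2 change of -0.06, CDC20 of -0.04 and UBE2C of 0.01. MKI67, the proliferation marker, was at 387, 324 and 230 CPM in WT and at 186, 219 and 222 CPM in MPTN24, which did not pass the test (edgeR adjusted p = 0.055). The mitosis count was 15 with the GC offsets and with upper-quartile scaling, 12 with limma, and 11, 12, 13 and 15 without MPTN24 1, MPTN24 2, WT 2 and MPTN24 3. The replication count was 13 without MPTN24 1 or MPTN24 3 and 12 with limma.

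Of 27 genes of homologous recombination and the Fanconi pathway 13 fell and 0 rose, 7 of them firmly, among them BLM, PALB2 and RAD51AP1; the count was 8 with the GC offsets, with limma and without WT 2 or MPTN24 1, and 7 without MPTN24 3. Among regulators of the first gap phase, CDK6, a kinase that opens the cycle, fell from 104, 160 and 108 CPM to 50, 56.9 and 60.4 CPM, and CCNE2, a cyclin of the same step, by 1.19 on the log2 scale. CDKN1A, the inhibitor p21, rose from 133, 171 and 184 CPM to 304, 257 and 290 CPM (1.74-fold, edgeR adjusted p = 0.00075), and MXD4, which opposes MYC, rose from 9.69, 8.72 and 8.93 CPM to 16.7, 15 and 18.5 CPM. Of 27 p53 targets 8 rose and 3 fell (40.7% called, against 23.2% of all tested genes), 5 and 1 firmly. Without MPTN24 1 or MPTN24 3, 5 rose. Beside CDKN1A, PLK3 and the cell death gene BBC3 rose firmly, and TIGAR, a regulator of glycolysis, fell from 22.4, 25.6 and 27.4 CPM to 16.1, 18.6 and 16.6 CPM (edgeR adjusted p = 0.0045). Of 18 tested targets of the FOXO factors 4 rose and 2 fell (33.3% called), 4 and 1 firmly. The firm rises were TXNIP, TSC22D3, YPEL3 and PIK3IP1, and the firm fall was FBXO32. Without WT 1, 4 rose and 4 fell, and the median log2 change went from 0.07 to -0.10. TXNIP, which holds back glucose uptake, went from 139, 104 and 110 CPM to 242, 231 and 225 CPM.

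Many heat shock proteins and chaperonins fell, and 16 of the 36 tested did not pass. Of 36 tested heat shock proteins and chaperonins 20 fell and 0 rose, 14 of them firmly, with a median log2 change of -0.39, and 20 also fell without WT 1, when 1 rose. HSP90AA1, the inducible form of the HSP90 chaperone (ENSG00000080824, chromosome 14, 102080742 to 102139699), fell from 2475, 2267 and 2251 CPM to 1337, 1497 and 1389 CPM (1.66-fold lower, log2 change -0.73 ± 0.10, edgeR adjusted p = 0.00035). CHORDC1, a partner of HSP90, fell from 39, 32.5 and 28 CPM to 17.1, 18.9 and 18.2 CPM. HSPE1 and HSPD1, which form the chaperonin of mitochondria, fell by 0.71 and 0.69 on the log2 scale, and the cytosolic chaperonin subunits CCT6A, CCT2, TCP1, CCT5 and CCT8 by 0.61, 0.49, 0.47, 0.46 and 0.44. The stress-inducible HSPA1A, DNAJB1 and HSPB1 had log2 changes of -0.31, 0.09 and 0.02 that did not pass, and HSF1, the factor that activates the family, of 0.15. With limma on FPKM plus 1, 13 of the 36 fell. Of 31 proteasome subunits 12 fell and 0 rose, 3 of them firmly, and the count was 5 without MPTN24 1, 3 without MPTN24 3 and 4 with limma.

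Promoters of 3 chaperone genes that fell, picked in the same way, are shown because the list held the heat shock element often. They are again the 250 bases before the RefSeq start on GRCh38.p14, with each GAANNTTC in capitals; the motif reads the same on both strands.
CHORDC1 (chr11:90223050-90223299, minus strand): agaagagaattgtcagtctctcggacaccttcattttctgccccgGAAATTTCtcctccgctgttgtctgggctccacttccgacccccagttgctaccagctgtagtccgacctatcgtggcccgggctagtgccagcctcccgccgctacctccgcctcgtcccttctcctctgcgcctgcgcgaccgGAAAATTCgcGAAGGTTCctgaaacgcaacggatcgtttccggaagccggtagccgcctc
HSPA8 (chr11:123062137-123062386, minus strand): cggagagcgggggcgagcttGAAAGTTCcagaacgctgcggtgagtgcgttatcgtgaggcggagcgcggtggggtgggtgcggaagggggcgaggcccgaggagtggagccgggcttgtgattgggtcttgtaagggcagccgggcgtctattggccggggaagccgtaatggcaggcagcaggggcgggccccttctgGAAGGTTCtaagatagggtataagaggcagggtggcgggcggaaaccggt
DNAJA1 (chr9:33025023-33025272, plus strand): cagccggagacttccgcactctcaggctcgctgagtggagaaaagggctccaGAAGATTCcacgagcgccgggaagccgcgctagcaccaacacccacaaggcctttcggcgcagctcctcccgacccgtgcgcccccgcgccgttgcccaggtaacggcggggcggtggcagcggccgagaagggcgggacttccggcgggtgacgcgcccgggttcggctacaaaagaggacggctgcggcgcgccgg
CHORDC1 held 3 matches, at 205, 60 and 50 bases before the start, HSPA8 held 2 and DNAJA1 held 1. The letters were present in 10 of 31 promoters of the list (32.3%), in 4.08% of those of tested genes and in 5.85% of all promoters. Of the 10 genes, CHORDC1, DNAJA1 and TCP1 fell firmly and HSPA8 fell, while HSPA1A, HSPA1B, HSPB1, HSPB8, DNAJB6 and SERPINH1 did not pass the test with all libraries.

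Genes of the ATF4 stress programme went both ways. Of 22 tested, 10 rose and 3 fell (59.1% called, against 23.2% of all tested genes), 8 and 2 of them firmly. CHAC1, which breaks down glutathione, rose from 8.98, 7.76 and 8 CPM to 21.8, 19.1 and 21 CPM (2.5-fold, edgeR adjusted p = 6.4e-05). The peptide gene ADM2 rose from 1.59, 2.06 and 2.38 CPM to 7.74, 5.55 and 7.53 CPM (3.43-fold), the stress cytokine GDF15 from 1.08, 1.93 and 2.99 CPM to 6.2, 6.05 and 6.21 CPM (3.05-fold), and PCK2, a mitochondrial enzyme of gluconeogenesis, from 33.1, 64.2 and 68.9 CPM to 128, 124 and 128 CPM. DDIT4, an inhibitor of mTOR signalling, rose from 279, 425 and 407 CPM to 782, 780 and 776 CPM (2.1-fold, edgeR adjusted p = 0.00022), and the MPTN24 libraries were nearly equal. PPP1R15A, which restarts translation after stress, fell from 184, 228 and 246 CPM to 117, 124 and 113 CPM, and ATF5 fell by 0.75 on the log2 scale. ATF4 itself had a log2 change of 0.18 and DDIT3, the factor CHOP, of 0.16, and neither passed.

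Of 25 genes of amino acid transport and synthesis 10 rose and 4 fell, 7 and 1 of them firmly, and with the GC offsets 5 rose and 6 fell. The falls numbered 7 without WT 1, 1 without WT 2 or MPTN24 1, 2 without MPTN24 3 and 1 with limma. SLC1A4, a carrier of neutral amino acids, rose from 4.44, 8.62 and 7.37 CPM to 19.1, 14.2 and 17.9 CPM, and SHMT2, the serine enzyme of mitochondria, from 447, 482 and 516 CPM to 809, 695 and 770 CPM. SLC7A11, the cystine carrier, fell from 45, 63.8 and 45.2 CPM to 25.5, 32 and 33.2 CPM (edgeR adjusted p = 0.006). Of 19 aminoacyl-tRNA synthetases 5 rose and 3 fell, and AARS1, SARS1, WARS1 and CARS1 rose firmly, by 0.43 to 0.62 on the log2 scale. The falls numbered 6 without WT 1 or with DESeq2, 1 without WT 2, MPTN24 1 or MPTN24 2 or with upper-quartile scaling, and 0 without WT 3 or MPTN24 3 or with limma. With the GC offsets 3 rose, and CARS1 did not pass (edgeR adjusted p = 0.056). Among chaperones of the endoplasmic reticulum 3 of 28 rose (10.7%, against 11.1% of all tested genes), 0 of them firmly. Without WT 1, 10 rose and 1 fell.

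**Figure D4:**
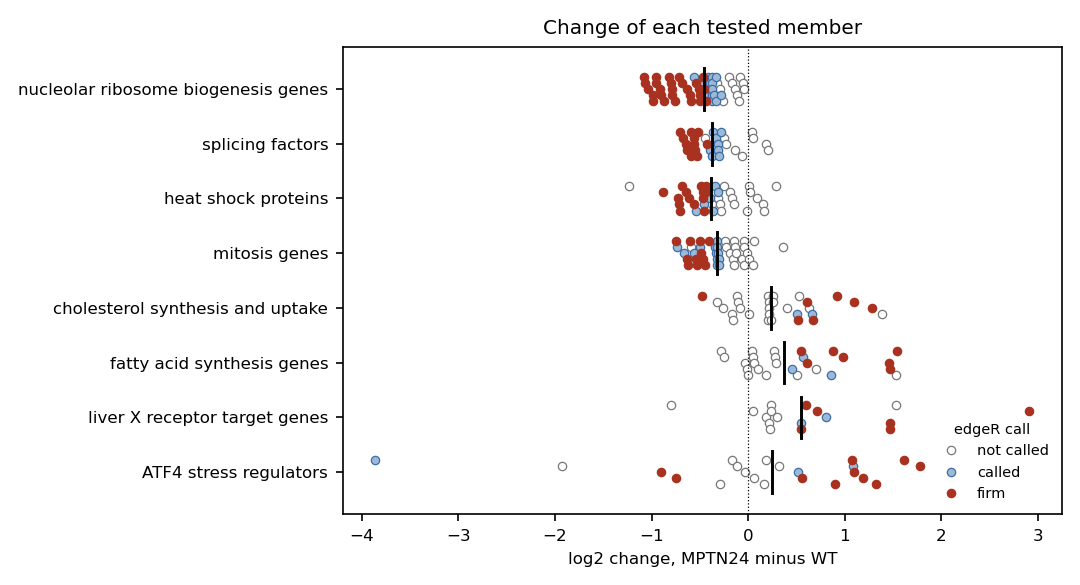
Change of each tested member of 8 lists (log2, MPTN24 minus WT), with firm calls in red, other calls in blue and genes that did not pass as open circles; black bars are list medians. The medians are -0.46 for the nucleolar list, -0.37 for splicing factors and -0.39 for heat shock proteins, and 0.55 for liver X receptor targets.

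Immediate early genes, which respond to growth signals within minutes, included FOS and others in which WT 1 lay far from WT 2 and WT 3. Of 27 tested, 10 fell and 1 rose, but 0 of the falls were firm. FOS, a subunit of AP-1 (ENSG00000170345, chromosome 14, 75278826 to 75282230), was at 73.4 CPM in WT 1, 718 in WT 2 and 693 in WT 3, and at 67.7, 91.9 and 75.7 CPM in MPTN24. WT 1 was thus inside the range of MPTN24, and the test did not pass with all libraries (edgeR adjusted p = 0.058); without WT 1 the log2 change was -3.17 (edgeR adjusted p = 1e-08). FOSB, at 25.4, 245 and 231 CPM in WT and 12.7, 12.9 and 13.8 CPM in MPTN24, and ATF3, at 7, 67.9 and 62.1 CPM and 2.75, 3.76 and 2.92 CPM, passed with all libraries (edgeR adjusted p = 0.023 and 0.02). EGR1, of the same class, was at 104, 386 and 370 CPM in WT and at 316, 337 and 323 CPM in MPTN24, and did not pass with or without WT 1 (edgeR adjusted p = 0.82 and 0.11). JUN and JUNB had log2 changes of -0.07 and 0.05. Without WT 1 13 of the list fell and 2 rose. The count of falls was 1 without WT 2, 4 without WT 3, 0, 3 and 2 without MPTN24 1, 2 and 3, 6 with the replicate block or with 2 groups in the fit, and 3 or 1 with limma. The firm rise was ARC, at 2.22 to 2.42 CPM in WT and 3.97 to 5.04 CPM in MPTN24.

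Feedback genes of the MAP kinases also differed from one another. DUSP1, a phosphatase of these kinases, was at 24.7, 159 and 173 CPM in WT and 16.2, 18 and 13.6 CPM in MPTN24, a fall that was not firm. DUSP5 fell from 74.2, 121 and 117 CPM to 56.1, 59.5 and 55.8 CPM and DUSP7 by 0.45 on the log2 scale, both firmly. ETV5, a transcription factor induced by ERK, rose from 27.5, 28.6 and 27.8 CPM to 54.3, 46.8 and 47.9 CPM (edgeR adjusted p = 0.00022), and SPRY4, an inhibitor of receptor signalling, from 34.6, 20.8 and 17.1 CPM to 48.4, 47.5 and 50.5 CPM.

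**Figure D5:**
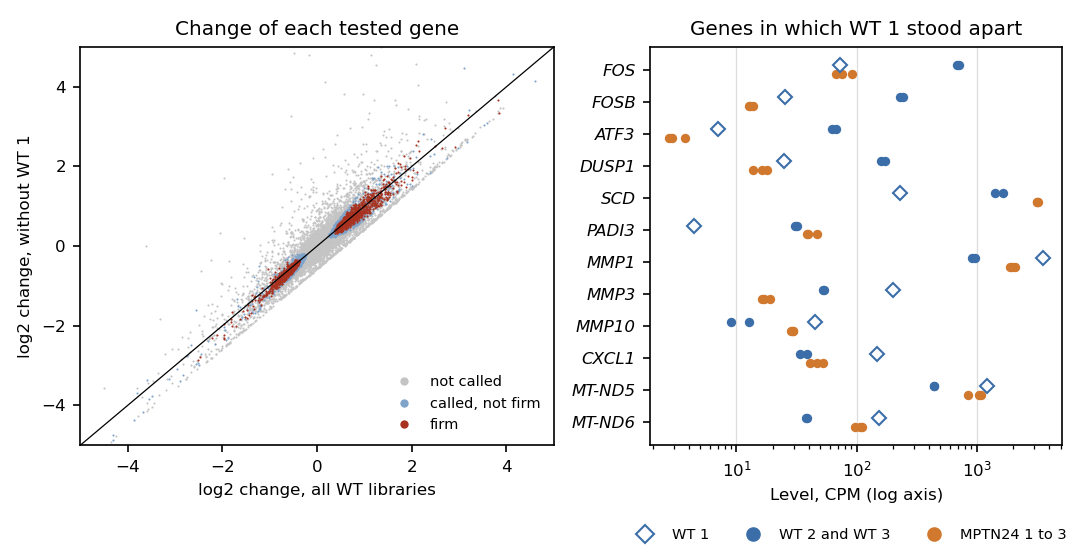
Left, log2 change of each tested gene with all WT libraries and without WT 1, coloured by call; 114 genes lie more than 5 from 0 and are not drawn, and the line marks equal values. Right, levels (CPM, log axis) in each library of the 12 genes in which WT 1 was farthest from WT 2 and WT 3. WT 1 lies within or next to the MPTN24 points for FOS and MT-ND5, and far from all other libraries for MMP1 and CXCL1.

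Other genes at 20 CPM or more in WT had WT 1 as the extreme. The collagenase MMP1 was at 3592 CPM in WT 1 and at 923 and 974 CPM in the other WT libraries, and at 2095, 1972 and 1915 CPM in MPTN24. MMP1 therefore did not pass with all libraries (log2 change 0.12, edgeR adjusted p = 0.9) and rose without WT 1 (1.07, edgeR adjusted p = 1.4e-05). CXCL1, a neutrophil chemokine, was at 148, 33.5 and 38.4 CPM in WT and at 41, 52.9 and 46.7 CPM in MPTN24, and its log2 change went from -0.65, which did not pass, to 0.38 without WT 1 (edgeR adjusted p = 0.028). MMP3, a stromelysin, was at 201, 53.9 and 52.2 CPM in WT and at 17.1, 16.3 and 19.1 CPM in MPTN24, below WT either way (log2 change -2.55 with and -1.60 without WT 1). Over 7324 such genes, 18 were 2-fold or more higher and 56 lower in WT 1 than the mean of WT 2 and WT 3. The same counts were 1 and 12 for WT 2, 6 and 8 for WT 3, and at most 5 and 6 for an MPTN24 library.

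Cytokine genes moved in both directions. Of 13 chemokines 3 fell and 1 rose, all firmly (30.8% called, against 23.2% of all tested genes). Without WT 1, 3 fell and 3 rose. Of 22 genes of the interleukin 1 and interleukin 6 families 7 fell and 2 rose (40.9% called), 4 and 1 firmly. Without WT 2, MPTN24 1 or MPTN24 2, 4 fell, and without WT 1 5 rose. IL6 fell from 4.92, 11.4 and 12.1 CPM to 1.47, 2.18 and 1.45 CPM (5.58-fold lower, log2 change -2.48 ± 0.30, edgeR adjusted p = 0.00021). CXCL8, which attracts neutrophils, fell from 102, 132 and 126 CPM to 67.2, 61.5 and 66 CPM, CXCL2 from 29.1, 23.7 and 23.1 CPM to 11.2, 11.7 and 10.9 CPM, and CXCL3 by 0.69 on the log2 scale. CCL5, the chemokine that rose, was at 0.476, 0.303 and 0.159 CPM in WT and at 0.812, 1.52 and 0.871 CPM in MPTN24. IL1RN, the antagonist of interleukin 1, rose from 4.87, 6.42 and 7.18 CPM to 17.3, 16.3 and 16.8 CPM (2.72-fold, edgeR adjusted p = 8.6e-05). NFKBIZ, an NF-kB cofactor, fell from 14.8, 24.3 and 20.5 CPM to 7.77, 8.65 and 9.02 CPM, and SOCS3, which limits cytokine receptors, by 0.76 on the log2 scale. Interferon-stimulated genes were higher in part: of 45 tested, 15 rose and 2 fell, 7 and 0 of them firmly. The firm rises included STAT2 and IRF9, 2 subunits of the factor that reads interferon signals, and OASL, at 1.41, 1.37 and 1.21 CPM in WT and 4.39, 3.21 and 4.71 CPM in MPTN24. Most genes of the list did not pass.

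Targets of YAP and TEAD, the transcription factors that read cell shape, fell in part. Of 26 tested, 12 fell and 2 rose, and 8 fell firmly. Beside THBS1 these were F3, from 1847, 1935 and 1808 CPM to 973, 1129 and 1065 CPM, IGFBP3, which binds insulin-like growth factors, from 35.9, 46.4 and 55.9 CPM to 21.4, 20.4 and 19.6 CPM, LATS2, ASAP1, AJUBA, AMOTL2 and CCN1. CCN2 fell by 0.47 on the log2 scale, not firmly. AXL, also on the list, had a log2 change of 0.07 that did not pass.

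Some genes of the basement membrane and of cell junctions rose, and most members of these lists did not pass the test. Of 22 tested collagen chains 7 rose firmly and 2 fell, 0 of them firmly, and of 21 integrins and laminins 7 rose and 2 fell, 5 and 0 firmly. COL6A1, a chain of the microfibrillar collagen VI, rose from 18.8, 14.3 and 14.6 CPM to 36.4, 33.2 and 38.5 CPM (2.27-fold, edgeR adjusted p = 9e-05). ITGA3, the receptor chain for laminins, rose from 2119, 1848 and 1792 CPM to 3572, 2968 and 3504 CPM, LAMB2 from 63.4, 54 and 49.2 CPM to 103, 90.2 and 98.9 CPM, and LAMA3 by 0.65 on the log2 scale. LAMA5 (log2 change 0.55) and COL9A3 (0.90) did not pass with the GC offsets (edgeR adjusted p = 0.21 and 0.055). Of 19 tight junction genes 5 rose and 1 fell (31.6% called), 4 and 0 firmly, with a median log2 change of 0.02. Of 15 desmosome genes 2 rose firmly and 3 fell, 0 of them firmly (33.3% called). Over all tested genes 23.2% were called, and 11.1% rose and 12.1% fell. CLDN4, a tight junction protein, rose from 15.9, 12.7 and 13.5 CPM to 38.3, 37.7 and 39.9 CPM (2.75-fold, log2 change 1.46 ± 0.11, edgeR adjusted p = 8.8e-06), and CLDN7 by 0.69. VIM, the intermediate filament of mesenchymal cells, rose from 721, 541 and 558 CPM to 924, 933 and 933 CPM, while CDH2, a mesenchymal cadherin, fell by 0.97 and CDH1, the epithelial cadherin, was at 121 to 139 CPM in WT and 137 to 142 CPM in MPTN24 (edgeR adjusted p = 0.4). TP63, the master regulator of squamous cells, fell from 249, 359 and 291 CPM to 186, 206 and 194 CPM, as did the transcription factors EHF, ELF3 and RUNX1. Of 18 tested squamous lineage transcription factors 7 fell and 2 rose (50% called), 4 and 0 firmly, and 9 did not pass. Without MPTN24 1 or MPTN24 3, or with limma, 4 fell.

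Ligands of receptor kinases moved in both directions. VEGFA (ENSG00000112715, chromosome 6, 43770184 to 43786487), the main ligand of KDR, rose from 90.8, 78.7 and 79.5 CPM to 135, 147 and 146 CPM (1.72-fold, log2 change 0.78 ± 0.10, edgeR adjusted p = 0.00038). PGF, a ligand of FLT1, rose from 7.68, 3.49 and 4.44 CPM to 13.2, 8.62 and 11.1 CPM, and VEGFC fell from 93.2, 73.6 and 77.4 CPM to 58.9, 57.9 and 49.1 CPM (edgeR adjusted p = 0.0041). The groups did not overlap in any of these 3 genes, as in all firm calls. KITLG, the ligand of KIT, fell from 20.5, 30.3 and 28.1 CPM to 12.7, 10.9 and 14.1 CPM. Of 13 tested EGFR family receptors and ligands 2 rose and 2 fell, all firmly (30.8% called, against 23.2% of all tested genes). Without WT 1, 5 rose and 4 fell. Of the EGFR family ligands NRG1 fell from 237, 312 and 362 CPM to 111, 127 and 117 CPM and AREG from 441, 417 and 425 CPM to 264, 297 and 253 CPM. NRG2, another ligand of the family, rose from 2.74, 2.96 and 4.32 CPM to 6.98, 5.87 and 8.04 CPM. EGFR itself was at 1037, 1095 and 853 CPM in WT and 861, 952 and 968 CPM in MPTN24 and did not pass (edgeR adjusted p = 0.63), whereas ERBB2 rose from 86.3, 78.3 and 77.6 CPM to 122, 111 and 129 CPM.

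Lysosomal and mitochondrial transcripts depended more on the libraries and on composition. Of 37 lysosomal genes 17 rose and 2 fell, but 4 rose firmly, the hydrolase genes GAA, GLB1, MAN2B1 and NAGLU. GAA and MAN2B1 did not pass with the GC offsets (edgeR adjusted p = 0.05 and 0.06). The rises numbered 10 with the GC offsets and 8, 11, 4 and 6 without WT 2, WT 3, MPTN24 1 and MPTN24 3. Mitochondrially encoded transcripts took 4.737%, 2.719% and 3.016% of counts in WT and 5.726%, 5.043% and 5.516% in MPTN24. Of the 13 protein-coding ones 6 rose and 1 fell, with MT-CO2 the firm rise, at 4637, 2982 and 3154 CPM in WT and 6579, 5441 and 5883 CPM in MPTN24. Without WT 1 11 of them rose, without WT 2 3, without WT 3 1, without MPTN24 1 and 3 1 and 2, with no filter or with 2 groups in the fit 3, and with the GC offsets 1. The part of this share in the other results was not tested.

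The resistant line, MPTN, is set beside these values as levels, without a test, since it is compared with the same WT libraries. Some genes had similar means in both drug groups, such as ITGA3 (3348 ± 331 CPM in MPTN24 and 3651 ± 261 CPM in MPTN, mean ± SD, n = 3), CLDN4 (38.6 ± 1.14 and 41.3 ± 3.02 CPM) and NOP58 (30.6 ± 3.02 and 30.6 ± 4.38 CPM). FASN was at 640 ± 219 CPM in WT, 1859 ± 242 CPM in MPTN24 and 847 ± 51.1 CPM in MPTN, and ANPEP at 3.12 ± 0.504, 12.7 ± 0.986 and 5.27 ± 1.1 CPM. ABCG1 was higher still in MPTN, at 94.8 ± 2.28 CPM against 34 ± 1.59 CPM in MPTN24, as was OASL, at 122 ± 10.9 CPM against 4.1 ± 0.788 CPM. CXCL8 was at 120 ± 16 CPM in WT, 64.9 ± 2.99 CPM in MPTN24 and 188 ± 19.5 CPM in MPTN, and OLR1 at 26 ± 2.68, 7.31 ± 0.856 and 37.6 ± 0.622 CPM, so that both were lowest at 24 h.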

How the data were processed

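RNA of HSC-3 was extracted with Trizol and 1 µg of total RNA went into an Illumina TruSeq RNA kit, per the labels' protocols. That kit keeps no strand, and reads of overlapping antisense genes cannot be separated. The tools were StringTie, HISAT2, Trimmomatic, FastQC, edgeR and CASAVA 1.8 on GRCh38, per the submitters' processing notes; their order, settings and annotation release are not given in the sources used here. The authors deposited estimated counts, whole numbers for 60612 genes in which a read pair often appears as 4 counts, and FPKM, a unit inferred from the values.

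The estimated counts were used as deposited. Genes were filtered by filterByExpr (minimum count 10, total 15), libraries scaled by TMM, and all 9 libraries fitted by edgeR 4.0.16 (robust quasi-likelihood, R 4.3.3) with the contrast MPTN24 minus WT, adjusted by Benjamini-Hochberg at 0.05. Errors of log2 changes are standard errors, and group values are mean ± SD over 3 libraries. Firm calls also passed in 6 fits with 1 library left out. Alternatives were RLE and upper-quartile scaling, a replicate block, no filter, a filter of 1 CPM in 3 libraries, 2 groups only, DESeq2 1.42.0, limma 3.58.1 on log2 of the deposited FPKM plus 0.1 or 1, counts divided by 4, a minimum 1.5-fold change and, chosen after seeing the data, offsets for GC content and transcript length (GENCODE 29). The main edgeR fit was tested on simulated data, and the other fits were not.

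The comparison, the 69 lists (1609 genes) and the naming rule were chosen with earlier results of these data known. The rule took the 10 largest firm rises and falls at 10 CPM or more, the 6 largest by CPM, up to 4 firm members of each list, firm long noncoding RNAs, the genes at 20 CPM or more with WT 1 as the extreme, those whose change moved most without WT 1, and 20 fixed genes; not all are described, and some genes are not reported here. The 10 largest rises and falls of the rule were taken among genes whose CPM ranges did not overlap between the groups. Other members are named after their values were seen. RefSeq promoters (GRCh38.p14) were searched on both strands.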

Additional observations from a re-analysis of the deposited data

How the results depend on the processing

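The genes that rose numbered 1884 and the genes that fell 2052. With 1 replicate left out the genes that rose ranged from 1022 to 2286 and the genes that fell from 935 to 2535. With limma on log2 of FPKM the genes that fell numbered 1002 (plus 0.1) and 1001 (plus 1), and with a minimum 1.5-fold change 72 rose and 25 fell, by a stricter null. The other settings stayed within 1.5 times: RLE 1873 and 2088, DESeq2 2208 and 2465, no filter 1572 and 2023, the replicate block 1951 and 2036, and the GC and length offsets 1335 and 2338. Replicate numbers did not pair the samples (correlations of deviations between same-numbered libraries -0.0281 to 0.0699), so the block is given here alone. Of the 1642 firm calls, 1474 (89.8%) held with the offsets, 1540 and 1524 with limma, where 1 gene each had the opposite sign, and 1633 with DESeq2. Of 221 named firm genes, 19 did not pass with the offsets, 8 or 9 with limma and 175 with a minimum 1.5-fold change. CXCL1 reversed, from a log2 change of -0.65 that did not pass to 0.38 without WT 1, in the fit of 3 groups and in that of 2 (-0.99 to 0.38 over fits with 1 replicate left out); the cause was not tested. Depth limits genes of a few CPM, and 3 libraries a group limit the rest.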

Other observations

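Long noncoding RNAs, 3 of each direction, were named by rule. LINC02577 fell from 3.66, 7.79 and 6.37 CPM to 2.12, 2.38 and 1.66 CPM, AC125807.2 from 14, 12.2 and 9.44 CPM to 5.08, 4.36 and 4.35 CPM, and AC027329.1 from 6.66, 6.6 and 7.06 CPM to 2.19, 3.26 and 2.43 CPM. AL365181.2 rose from 2.33, 3.25 and 2.69 CPM to 6.3, 8.73 and 7.62 CPM, and AC148477.2 and AL590666.2 rose by 1.14 and 1.07 on the log2 scale. Their functions are not annotated in the files. Of 2490 tested long noncoding RNAs 43 rose firmly (1.73%) and 22 fell firmly (0.884%), and of 13476 protein-coding genes 807 (5.99%) and 758 (5.62%), against 5.06% and 4.6% of all tested genes.

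Genes of the antioxidant factor NRF2 fell in part. Of 28 tested, 8 fell and 2 rose (35.7% called, against 23.2% of all tested genes), 5 and 1 firmly. Without MPTN24 1 or MPTN24 3, 5 fell. NFE2L2, which encodes NRF2, fell from 75.9, 121 and 113 CPM to 50.2, 64.4 and 57.8 CPM, and TXNRD1, a thioredoxin reductase, from 433, 414 and 377 CPM to 256, 281 and 253 CPM (edgeR adjusted p = 0.00094). Of 27 enzymes of DNA methylation and the Polycomb group 12 fell and 4 rose, 5 and 2 firmly. UHRF1, which keeps methylation through replication, fell from 138, 135 and 118 CPM to 76.4, 92 and 81.7 CPM, TET3 by 0.80 and HDAC9 by 0.76 on the log2 scale, and CBX7 rose from 4, 3.98 and 3.61 CPM to 7.63, 8.44 and 9.13 CPM. The 12 falls became 7 without MPTN24 1 or with upper-quartile scaling and 6 without MPTN24 3 or with limma. Among ATP-binding transporters outside the liver X receptor list, ABCA7 rose from 19.6, 17.5 and 15.2 CPM to 37.4, 28.1 and 34.3 CPM and ABCC3 from 38.7, 39.4 and 34.6 CPM to 65.5, 57.6 and 60.5 CPM. Nuclear-encoded subunits of the respiratory chain did not rise with the mitochondrial transcripts: 0 of 44 rose and 5 fell, 0 of them firmly. The 5 were 11.4% of the list, against 12.1% of all tested genes that fell. The falls numbered 9 without WT 1, with DESeq2 or with the GC offsets, 10 with 2 groups and without WT 1, 2 with upper-quartile scaling, 0 without WT 2 or MPTN24 1, and 1 without MPTN24 2, without MPTN24 3 or with limma.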
